A study of Mus musculus with 2 samples.

Results

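The AP-1 family examined here consisted of 8 mouse genes, Fos, Fosb, Fosl1, Fosl2, Jun, Junb, Jund and Atf3, among 21887 protein coding genes of the RefSeq table of GRCm38.p6 on the chromosomes that held peaks. The members were given by name. GATA4 peaks were assigned to a member when the peak centre lay in the gene span or within 50 kb of it, which took 19 of the 17539 peaks of the list. The peaks came from chromatin immunoprecipitation followed by sequencing (ChIP-seq) of GATA4, a zinc finger transcription factor that binds GATA sequences. There was 1 GATA4 library, precipitated with a cocktail of 3 antibodies, and 1 IgG control library. Both were from myoblasts, the proliferating precursors of skeletal muscle, grown from satellite cells in medium with 20% fetal serum and 20 ng/ml basic fibroblast growth factor. All cells came from mice of STOCK Myf5tm1Pas/J, which carries a targeted Myf5 allele, so both libraries share that allele. Its zygosity and the number and age of the animals were not given in the labels. Read depth was not given and no values of the IgG library were used. With 1 library there was no replicate, no error between libraries and no test, so all values below describe this 1 peak list. A peak list does not measure expression, so the cell type could not be checked against marker genes.

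AP-1 is a family of basic leucine zipper (bZIP) transcription factors that bind DNA as pairs. Jun proteins can pair with themselves or with a Fos protein, while Fos proteins need a partner, and Atf3 joins Jun proteins as a stress-induced relative of the CREB and ATF factors. Several of the genes are immediate early genes, transcribed within minutes of serum, growth factor or stress signals passed on by MAP kinases. Serum and fibroblast growth factor are among the known inducers. In muscle precursors AP-1 is known for its link with activation and proliferation, and Jun has been described to bind MyoD and to hold back differentiation.

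Promoter sequences were taken from RefSeq (GRCm38.p6), which gave 250 bases before and 50 after the start site for 7 of the 8 genes. The entry of Fosl1 was not among them. Those of Atf3, Jun and Fos are shown because they hold the matches to the GATA site or to the core of the cAMP response element (CRE), and because they differ in their GATA4 peaks: Atf3 had a peak over the promoter, Fos had peaks only farther away and Jun had none within 50 kb. Each line is the 250 bases before the start site, 5′ to 3′ on the transcribed strand, and capitals mark GATA sites (AGATAA or TGATAA, and the added forms AGATAG or TGATAG) and the core of the CRE (TGACGT), which reads ACGTCA where it lies on the other strand.
Atf3 chr1:191183334-191183583, minus strand: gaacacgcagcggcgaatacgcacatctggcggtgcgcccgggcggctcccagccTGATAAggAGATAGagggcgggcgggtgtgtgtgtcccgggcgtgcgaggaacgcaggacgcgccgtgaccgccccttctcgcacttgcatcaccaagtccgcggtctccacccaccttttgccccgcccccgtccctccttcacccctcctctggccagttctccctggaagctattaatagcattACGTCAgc
Jun chr4:95052223-95052472, minus strand: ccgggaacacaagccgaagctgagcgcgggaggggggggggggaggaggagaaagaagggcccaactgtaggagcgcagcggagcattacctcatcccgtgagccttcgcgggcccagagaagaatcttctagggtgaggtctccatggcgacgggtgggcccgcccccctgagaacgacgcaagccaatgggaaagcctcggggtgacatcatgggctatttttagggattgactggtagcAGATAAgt
Fos chr12:85473640-85473889, plus strand: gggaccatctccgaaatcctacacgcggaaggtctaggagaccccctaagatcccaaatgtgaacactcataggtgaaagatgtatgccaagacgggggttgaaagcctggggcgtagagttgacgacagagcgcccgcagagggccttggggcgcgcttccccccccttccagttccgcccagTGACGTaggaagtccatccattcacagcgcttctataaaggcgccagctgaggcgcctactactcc

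Among the member promoters, GATA sites were found in Atf3 and Jun. With the forms AGATAA and TGATAA on both strands, 2 of 7 member promoters had a match, against 15.9% of 21263 promoters of protein coding genes. Atf3 had TGATAA from 195 to 190 bases before the start site, and, among the forms added after the sequences were seen, AGATAG from 187 to 182 bases before it. In Jun, AGATAA lay from 8 to 3 bases before the start site. With all 4 forms the count stayed at 2 of 7, against 26.0% of all promoters. The GATA4 peak of Atf3 covered all 250 printed bases, both GATA sites included. No GATA4 peak overlapped the Jun promoter. A match is a description of letters and does not show that a site was bound.

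The same promoters were searched for other motifs on both strands. The full CRE, TGACGTCA, had no match in the 7 promoters (2.23% of all promoters had one). Its core TGACGT, chosen after the sequences were seen, matched in Fos from 66 to 61 bases and in Atf3 from 8 to 3 bases before the start site, against 8.49% of all promoters. The E-box CAGCTG, a form bound by MyoD and its E protein partners, matched in Fos, Junb and Jund (15.6% of all promoters). The AP-1 site TGACTCA or TGAGTCA (4.66% of all promoters), the CArG box of serum response factor (1.52%) and the TEAD site CATTCC (13.6%) had no match in the 7 windows. Only these forms within 300 bases were searched, so a site of other letters or farther upstream would be missed. The lack of a match does not show that a gene lacks such a site. GC content was 46.7% in the promoter of Jund and between 58.7% and 68.3% in the other 6, with a median of 56.3% over all promoters.

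GATA4 peaks lay near nearly all AP-1 genes. Of the 8 members, 7 had a peak in the span or within 50 kb, and 56.8% of all protein coding genes did. The members are short genes, the longest being Fosl2 at 21369 bp, and among the 12243 protein coding genes no longer than that the share was 49.2%. Jun was the member without a peak in this window. The members had a median of 2 and a mean of 2.38 peaks, against 1 and 1.36 for all protein coding genes and 0 and 1.02 for those no longer than Fosl2. The family was uneven: Fos had 5 peaks, Fosb and Atf3 had 4 each, Fosl2 had 3, and Fosl1, Junb and Jund had 1 each. A number of 5 or more, as at Fos, was found at 5.75% of protein coding genes.

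**Figure D1:**
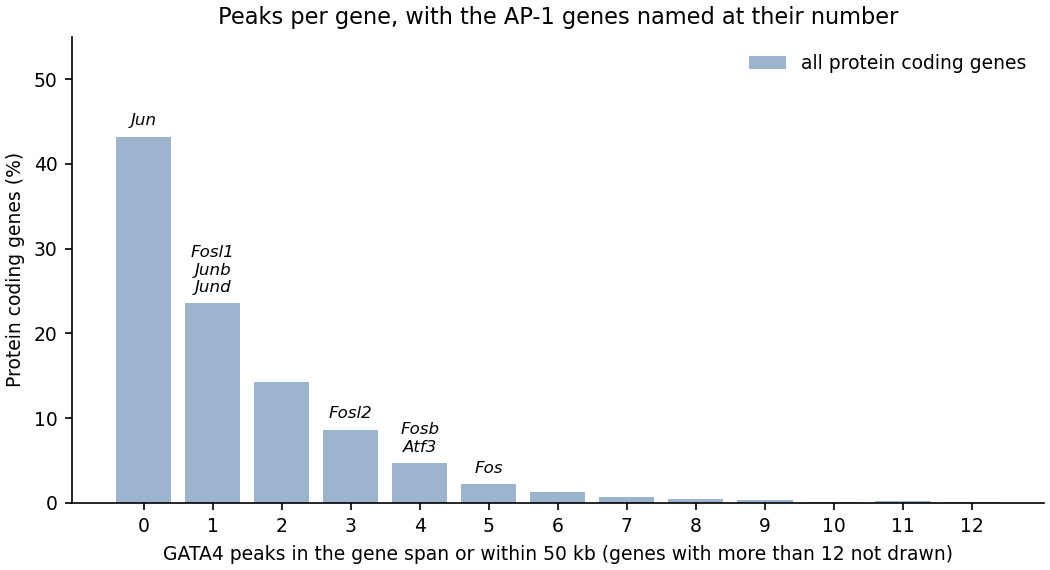
Percentage of protein coding genes (vertical axis) by number of GATA4 peaks in the gene span or within 50 kb (horizontal axis), with the AP-1 genes named above the bar of their own number. Fos stands at 5 peaks, Fosb and Atf3 at 4 and Fosl2 at 3, while Jun falls in the bar of genes without a peak.

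Most of the peaks lay more than 10 kb from the gene span. That band also makes up most of each window, since the genes are short. The split of the peaks by distance was not compared with that of other genes. Of the 19, 2 were inside a gene (1 in Fosl2 and 1 over the start of Atf3), 1 was outside but within 1 kb, 2 were between 1 and 10 kb away and 14 were between 10 and 50 kb away. Within 10 kb of the span, 4 of the 8 members had a peak (Fosl1, Fosl2, Junb and Atf3), against 33.3% of protein coding genes. With the direction of transcription taken from RefSeq, 8 peaks lay upstream of the gene and 8 downstream, and the peak of Fosl1, whose direction was not in the promoter table, was counted in neither. A peak overlapped the promoter window of 1 of the 7 members, Atf3, against 7.76% of the promoters of protein coding genes.

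**Figure D2:**
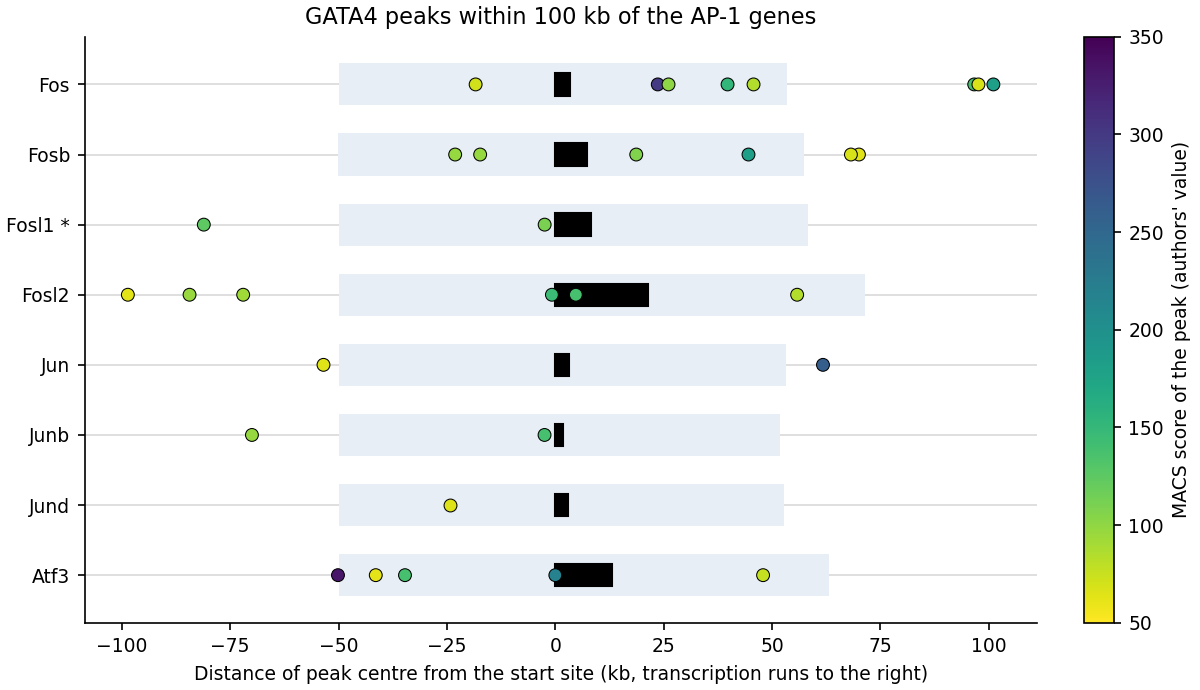
Position of every GATA4 peak within 100 kb of the 8 genes, as distance of the peak centre from the start site in kb with transcription running to the right; Fosl1, marked with a star, is drawn in genome orientation from its lower end. Black boxes are the genes, pale bars the span with 50 kb on each side, and the colour of a point is the MACS score; the darkest points are a Fos peak 23.6 kb past its start and an Atf3 peak just outside the pale bar.

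Each peak carries a score that the authors' peak caller, MACS, gave it. The file does not define the score, and a peak is called strong below only in the sense of a high score. Its median over the list was 99.3 and its quartiles were 77.7 and 138. Fos, the prototype of the Fos proteins and an immediate early gene, lies at chromosome 12, 85473890 to 85477274, and no other protein coding gene reached into its window. Its strongest peak (85496945 to 85498131) scored 299, rank 373 of 17539, and its centre was 20.3 kb beyond the end of the gene. A second downstream peak lay close to it, at 22.7 kb with a score of 101. Farther downstream, peaks at 36.4 and 42.4 kb scored 153 and 84.8. The only upstream peak was 18.4 kb before the gene and scored 71.6, below the lower quartile of the list. The Fos peaks were therefore placed mainly on the downstream side, 4 of 5, and none lay within 10 kb.

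On that downstream side Fos is followed by Jdp2 and Batf, which encode further bZIP proteins that pair with Jun proteins and can repress or modulate AP-1 sites. From the start of Fos to the far end of Batf, a span of 235 kb, there were 11 peaks. Of these, 4 were within 50 kb of Fos and 7 within 50 kb of Jdp2, and Batf had none within 50 kb. The highest score on the Jdp2 side was 182. Distance alone does not assign any of these peaks to one of the 3 genes.

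Fosb encodes a Fos protein with a full activation domain and lies at chromosome 7, 19302696 to 19310118, in a gene-rich region where 7 other protein coding genes reached into its window. All 4 of its peaks were nearer to, or inside, another gene. The strongest scored 182 (19264831 to 19266101), 37.2 kb from Fosb, and lay inside Vasp, which encodes an actin regulator. A peak inside Rtn2, a reticulon gene, scored 106 and was 11.3 kb from Fosb. Upstream of Fosb, peaks at 17.3 and 23.0 kb both scored 97.0, a score that 659 peaks of the list hold. They lay nearer to Ercc1, a DNA repair gene, at 16.7 and 10.9 kb. The first was thus almost as near to Fosb as to Ercc1. With each peak given to its nearest protein coding gene, Fosb had no peak.

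Fosl1 encodes Fra-1, a Fos-related protein without the strong activation domain of Fos, and lies at chromosome 19, 5447698 to 5455938. It had 1 peak, 391 bp wide (5445055 to 5445445), with a score of 110 and its centre 2.45 kb from the lower-coordinate end of the gene. Although 11 other protein coding genes reached into the window, Fosl1 was the nearest to this peak. The next peak lay at 81.1 kb, inside Banf1, with a score of 124.

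Fosl2 encodes Fra-2 and lies at chromosome 5, 32136472 to 32157840, with no other protein coding gene in its window. It was the member with the most peaks close to its span. The first (32135275 to 32136122) scored 146, rank 3900, with its centre 0.774 kb upstream of the start site and its edge 350 bp from it. The second (32140842 to 32141599) was inside the gene, 4.75 kb past the start site, and scored 139. Both were above the upper quartile of the list. The third was 34.4 kb downstream and scored 84.1.

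Within 50 kb the 3 Jun genes had 2 peaks in all and the 4 Fos genes 13. Within 100 kb, Jun, Junb and Jund had 2, 2 and 1. Fos, Fosb, Fosl1 and Fosl2 had 8, 6, 2 and 6 there. With each peak given to its nearest protein coding gene, the Jun genes had 7 and the Fos genes 9. The contrast thus depends on how peaks are assigned and was not tested. Jun, whose protein is the central AP-1 partner, lies at chromosome 4, 95049036 to 95052222, and no other protein coding gene reached into its window. Its nearest peak was 53.5 kb upstream, just outside the window, with a score of 64.7. On the downstream side a peak at 58.6 kb scored 261, rank 621, but was only 323 bp wide and lay nearer to Mysm1, a histone deubiquitinase gene. Jun was nonetheless the nearest protein coding gene of 6 peaks, the upstream one at 53.5 kb and 5 at 126 to 167 kb on the same side, with scores from 84.1 to 168. The GATA site in the Jun promoter printed above thus had no peak over it.

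Junb, which encodes a weaker activator that often opposes Jun, lies at chromosome 8, 84976909 to 84978748. Its single peak (84980973 to 84981472) was 2.47 kb upstream and scored 138, and Junb was its nearest protein coding gene, although 8 others reached into the window. Jund encodes the Jun protein that is expressed most steadily in resting cells, and lies on the same chromosome at 70697739 to 70700616. Its only peak was 24.2 kb upstream, inside Lsm4, an RNA processing gene, and scored 66.1, rank 15766. Among peaks above the median score, Jund had none.

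Atf3, the stress-induced member, lies at chromosome 1, 191170296 to 191183333, and was the only one of the 7 genes with a known start site that had a peak over it. That peak (191182822 to 191183808) scored 217, rank 1197, and was 987 bp wide. It reached from 475 bp before the start site to 511 bp after it. Upstream, peaks at 34.7 and 41.4 kb scored 138 and 62.3. Downstream, a peak 34.9 kb beyond the gene scored 76.5 and was nearer to Batf3, another bZIP gene, within 50 kb of which it also lay.

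The edge of the window left out the highest score near any AP-1 gene. A peak 50.1 kb upstream of Atf3 (191232580 to 191234344) was 1765 bp wide and scored 332, rank 230, and Atf3 was its nearest protein coding gene. The peaks just inside the limit were those of Fos at 42.4 kb (score 84.8) and Atf3 at 41.4 kb (62.3). Just outside were this Atf3 peak and the Jun peak at 53.5 kb (64.7). Counting any overlap with the window in place of the centre brought the Atf3 peak in and made 20 peaks.

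The median score of the AP-1 peaks was near that of the list, and more of them than of the list ranked high, a difference that was not tested. The median over the 19 peaks was 106 and the quartiles were 84.4 and 142, against a list median of 99.3. Of the 19, 11 were above the list median, and 8 ranked above or at the upper quartile of the list (42.1%): 2 each at Fos, Fosl2 and Atf3 and 1 each at Fosb and Junb. These 8 include a Fos peak at a score of 153 that 325 peaks of the list hold. They also include the Junb peak and an Atf3 peak at 138, a score that 428 peaks hold. Those 428 are tied at rank 4246 (top 24.2%), across the upper quartile, and all rank as at it, which raises the share of the list too. By the same rule that share takes in these 428 and all peaks ranked ahead of 4246 among the 17539. Among peaks above the list median, 6 of the 8 genes had one within 50 kb, against 36.8% of protein coding genes. The highest score per gene had a median of 146 over the 7 genes with a peak, and of 120 over all protein coding genes with a peak. The median width was 738 bp, against 745 bp in the list.

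**Figure D3:**
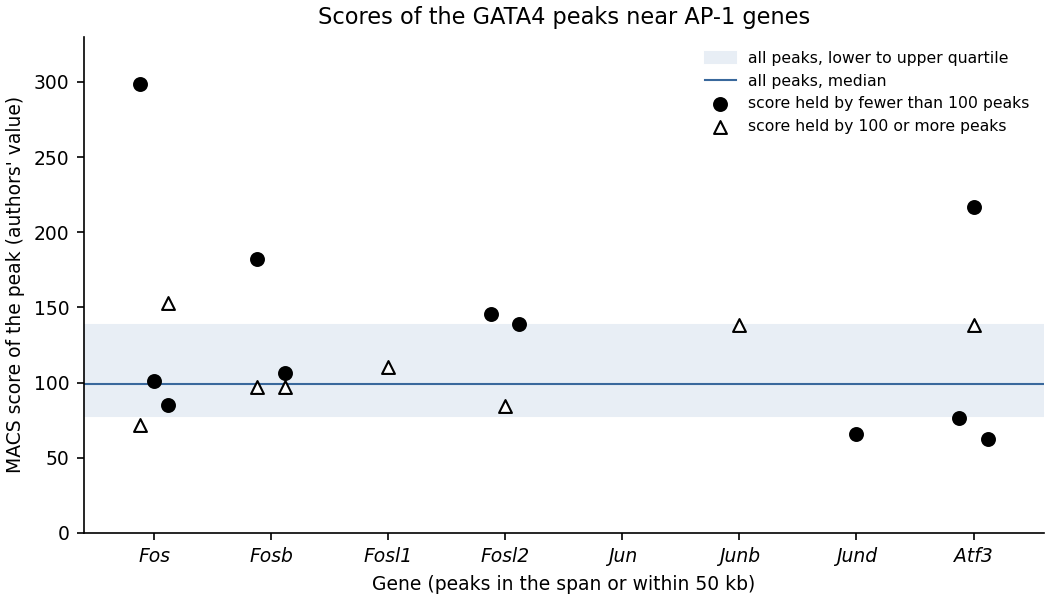
MACS score (vertical axis, the authors' value) of each peak in the span or within 50 kb of the 8 genes (horizontal axis); the line and band are the median of 99.3 and the quartiles of all 17539 peaks. Triangles are scores held by 100 or more peaks of the list: the only peaks of Fosl1 and Junb are of this kind, while the highest point, at Fos, is not.

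Several of these scores recur in exactly the same value across the list. Of the 19 peaks, 8 (42.1%) had a score that 100 or more peaks share, against 25.1% of the list. These 8 peaks were narrow, from 330 to 583 bp, while the other 11 were 710 to 1271 bp wide. In the whole list such peaks had a median width of 494 bp and the others of 800 bp. The single peaks of Fosl1 (score 110, shared by 607 peaks) and Junb (score 138, shared by 428 peaks) were of this kind. Without such peaks 5 of the 8 genes had a peak within 50 kb, with 11 peaks in all, against 49.4% of protein coding genes. The strongest peaks of Fos, Fosb, Fosl2 and Atf3 were not of this kind. How duplicate reads were handled is unknown here, and its part in these values was not tested.

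The neighbourhood of the genes differed within the family. Fos, Fosl2 and Jun had no other protein coding gene in the window and Atf3 had 1, while Fosb, Fosl1, Junb and Jund had 5 to 11. The first 4 genes held 12 of the 19 peaks and the other 4 held 7. For 13 of the 19 peaks the AP-1 gene was the nearest protein coding gene, and the 6 exceptions were the 4 peaks of Fosb, the peak of Jund and the Batf3-side peak of Atf3. By the nearest gene, 6 of the 8 members had a peak, against 32.2% of protein coding genes.

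Genes that act with AP-1 were counted in the same way, in 5 lists of 68 genes of which 50 had a peak within 50 kb. Gene length differs between lists, and longer genes have wider windows. The peaks named for Mafk, Maff, Mkl1, Elk4, Zfp36, Plau and Plaur were nearer to another protein coding gene, so distance does not assign them. Of 14 bZIP dimer partners, 10 had a peak. Mafk, a small Maf protein without an activation domain, was highest (score 205 at 1.60 kb), ahead of Jdp2 (182 at 23.7 kb) and Maff (150 at 24.3 kb). The share of 71.4% was above that of all protein coding genes, and it was the same without shared scores, against 49.4% of all genes. But among peaks above the median score 4 of 14 genes, or 28.6%, had one, below the 36.8% of all genes.

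Of 16 genes of the MAP kinase cascade, which carries growth factor and stress signals to AP-1, 13 had a peak (81.2%). Among them was Egfr, a growth factor receptor gene, with a peak inside the gene that scored 213. Of 10 genes for factors that activate the promoters of Fos and Jun, 8 had a peak (80%). These were led by Mkl1, listed as Mrtfa and encoding a coactivator of serum response factor (264 at 47.1 kb), Mef2a (243 at 8.97 kb) and Elk4, encoding a ternary complex factor (229 at 43.1 kb). The peak inside Srf itself scored 64.8. Within 50 kb both shares were above the 56.8% of all protein coding genes. Among peaks above the median score, the share of the kinase list fell to 37.5%, near the 36.8% of all genes, while that of the activator list was 70.0%.

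Of 10 genes for turnover or repression of AP-1 or its transcripts, 9 had a peak (90.0%, against 56.8% of all protein coding genes). The share was 60% without shared scores and 40% among peaks above the median score, the latter near the 36.8% of all genes. The highest were near Dusp1, encoding a MAP kinase phosphatase (score 167 at 6.14 kb), Zfp36, encoding a protein that destabilises short-lived mRNAs (154 at 3.91 kb), and inside Bach1, encoding a bZIP repressor (152). Of 18 genes known as AP-1 targets, 10 had a peak (55.6%), close to the share of all protein coding genes. Without shared scores the share of the targets was 38.9%, against 49.4% of all genes. Among peaks above the median score it was 33.3%, against 36.8%. The targets with a peak were led by the cytokine gene Lif (213 at 26.3 kb), Cd44, encoding a hyaluronan receptor (182, inside the gene), and Itga5, encoding an integrin subunit (174, inside the gene). The matrix protease genes Mmp1a, Mmp3, Mmp10 and Mmp13, which lie in 1 gene cluster on chromosome 9 and are not independent places, had none within 50 kb. The protease gene Plau and its receptor gene Plaur had 4 peaks each, with highest scores of 149 and 148.

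**Figure D4:**
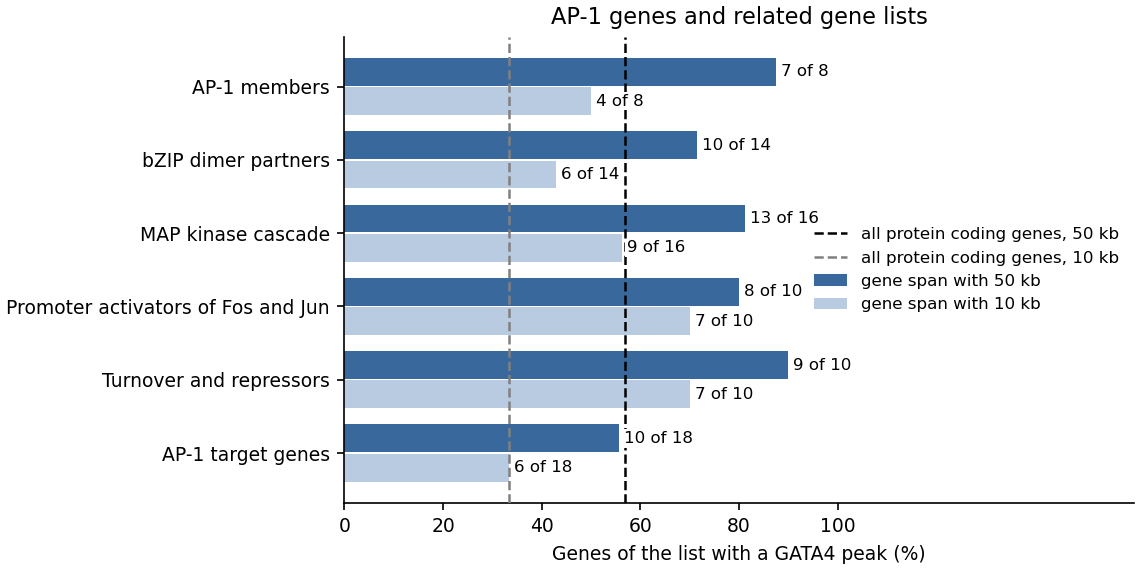
Percentage of genes with a GATA4 peak (horizontal axis) in the AP-1 family and the 5 related lists, within 50 kb of the gene span (dark bars) and within 10 kb (pale bars), with the number of genes beside each bar and the share of all protein coding genes as dashed lines. The AP-1 family stands at 7 of 8 and 4 of 8, and the AP-1 target genes at 10 of 18 lie next to the dashed line.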

How the data were processed

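The reads were processed with CASAVA 1.8 and Bowtie on build GRCm38 (mm10), per the submitters' processing notes, and MACS in Galaxy called the peaks, per the file header. In the list that the authors deposited each peak has its coordinates and a score, which was used here only to describe, rank and filter peaks of that list. The MACS and Bowtie versions, the calling threshold, the handling of duplicates and whether IgG served as the MACS control are unknown (not given in the sources used here). Depth is unknown.

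Starts were converted from 0-based to 1-based. Peaks were assigned by their centre to protein coding genes of the RefSeq table of GRCm38.p6 with Python 3.11.15, numpy 2.4.6 and pandas 2.3.3, and the assignment was tested on simulated data. Start sites and strands came from the RefSeq promoter table. Of the list symbols, 2 were matched by synonym and the others directly. No genome sequence was used, so peak sequences were not searched. The members and lists were chosen with earlier results of these data known. All 8 members are described with every peak within 50 kb, and up to 3 genes per other list by the highest score of such a peak. Some genes that this rule would name are not reported here. The protease genes, Plaur and Srf were named after their values were seen. Alternatives were windows of 1, 10 and 100 kb, distance from either gene end, peaks above the median score, any overlap, the nearest gene and genes no longer than the longest member. Leaving out scores shared by 100 or more peaks, other motif forms and only the bases before the start site were chosen after seeing the data.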

Additional observations from a re-analysis of the deposited data

How the results depend on the processing

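The number of AP-1 genes with a peak, 7 within 50 kb, was 4 within 10 kb and 2 within 1 kb, where 24.6% of all protein coding genes had a peak. It was 8 within 100 kb (69.9% of all) and 7 from either gene end (56.0%). It was 6 with peaks above the median score (36.8%) or the nearest gene (32.2%), and 5 without shared scores (49.4%). The number of AP-1 peaks, 19, was 3 within 1 kb, 5 within 10 kb, 32 within 100 kb, 11 with peaks above the median score and 11 without shared scores. It was 20 with the nearest gene or any overlap. Narrower windows and fewer peaks lower these counts by construction. Of the 68 genes in the other lists, 50 had a peak within 50 kb and 35 within 10 kb. With peaks above the median score 27 had one, and without shared scores 44. In the same order, the shares of all protein coding genes were 56.8%, 33.3%, 36.8% and 49.4%. The number of member promoters with a GATA site was 2 under each choice of letters and with only the bases before the start site, while the CRE count went from 0 for the full site to 2 for its core. Of 72 further counts for single members, lists and the CRE, 39 stayed within 1.5 times of the main count and 33 did not. The 39 include counts of Jun that were 0 within 50 kb and could not fall with narrower windows or fewer peaks. The planned motif search in peaks was not run, because no genome sequence was used. No paired analysis was possible because there was 1 library per antibody. With depth unknown, a gene without a peak cannot be called unbound.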

Other observations

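Over all protein coding genes, the 1650 promoters that overlapped a GATA4 peak held the GATA site AGATAA or TGATAA in 12.1%, against 15.9% of all promoters, so the Atf3 promoter belongs to the smaller part of promoters under a peak that have one. The CRE core TGACGT was in 14.3% of the promoters under a peak and in 8.49% of all, and the full CRE in 4.12% and 2.23%. The window is 300 bases around the start site and need not hold the centre of the peak. These shares are a description and were not tested.

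Genes with few neighbours did not in general have more peaks. Protein coding genes with at most 1 other protein coding gene in the window had a mean of 1.35 peaks and a median of 0, and those with more had a mean of 1.37 and a median of 1. The 4 AP-1 genes of the first kind had 5, 3, 0 and 4 peaks (Fos, Fosl2, Jun and Atf3).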
